A study of Mus musculus with 9 samples.

Results

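The genes described here are 39 mouse genes of glycolysis and of the response to low oxygen. They were picked by name from the 48526 gene rows of the deposited table. Of these, 26 carry glucose through glycolysis to lactate or to the gate of the mitochondrion, or regulate that path (the Pfkfb and Pdk genes). The other 13 belong to the hypoxia pathway. All 39 were found by symbol and all 39 passed the filter of a mean of at least 10 normalized counts, which left 13780 genes for testing. They were measured by RNA sequencing of the medial ganglionic eminence (MGE), a ventral forebrain region that produces cortical interneurons, from C57BL/6 mouse embryos at embryonic day 14.5. Control replicates 1, 2 and 3 are Nkx2.1-cre; Rosa26-YFP, control replicate 4 is Nkx2.1-cre; Ctnnb1fl/wt; Rosa26-YFP, and the 5 knockout replicates are Nkx2.1-cre; Ctnnb1fl/fl; Rosa26-YFP. Every library therefore carries the Cre and the yellow fluorescent reporter, and Ctnnb1, the gene for beta-catenin, can be deleted only in cells in which Nkx2.1 sequence has driven Cre. Control replicate 4 has 1 floxed allele, and the labels name both cells and tissue as sources without saying which a library came from, whether cells were sorted, or whether embryos were pooled.

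Glycolysis splits glucose into pyruvate in the cytoplasm, and several of its steps can be run by different isozymes, encoded by separate genes, that differ in regulation and in the cells that use them. Proliferating progenitors are known for high expression of Hk2, Ldha and the pyruvate kinase gene Pkm, while Hk1, Eno2 and Ldhb are known from neurons and from tissues that oxidise lactate and pyruvate. The hypoxia-inducible factors (HIF), transcription factors whose alpha subunits are hydroxylated and destroyed when oxygen is present, raise many glycolytic genes and a set of other targets when oxygen falls. HIF binds a short DNA core, ACGTG or GCGTG, in the hypoxia response elements of its targets.

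If the step between values in each library is taken as 1 read, the library totals ran from 5120585 to 5569444; the deposited values are already scaled, and these totals serve only to describe depth. Ctnnb1 was at 9828 ± 197 (SD, n = 4) normalized counts in the controls and 6789 ± 828 (SD, n = 5) in the knockouts, lower in all 5 knockouts than in any control (log2 fold change -0.54, limma adjusted p = 0.000811). Fold changes below are on the log2(normalized count + 1) scale, knockout minus control, with their standard error (SE); this scale understates the change of low genes. The test was limma over all 13780 genes with Benjamini-Hochberg adjustment, and a gene passed below 0.05. Lhx6, a factor that defines neurons of the MGE, ranged from 1968 to 4183 in the controls and from 4611 to 6066 in the knockouts. Progenitor and neuron genes differed widely between the groups. Summed counts of 11 proliferation genes were 26728 to 29538 in control and 10006 to 20246 in knockout, and all 11 passed as lower. Sums of 10 neuron genes were 14744 to 18215 and 26760.3 to 35376, with 8 higher and 0 lower. In bulk RNA, fewer cells of a type and less RNA per cell cannot be told apart.

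Of the 39 members, 15 rose, 9 fell and 15 did not pass, where of all genes tested 34.5% passed, 17.2% as higher and 17.3% as lower. Among the 26 glycolysis genes 10 rose and 7 fell (median log2 fold change 0.12), and among the 13 hypoxia genes 5 rose and 2 fell (median 0.22), beside a median of -0.01 over all genes tested. The groups did not overlap for 20 members, 13 of glycolysis and 7 of hypoxia, beside 29.1% of all genes. At hexokinase, enolase and lactate dehydrogenase a gene rose while its counterpart fell. Of these genes Hk1, Hk2 and Eno2 passed under every alternative run, while Eno1, Ldha and Ldhb did not. The falls lay in Hk2, the lower part of the pathway from Gapdh to Ldha, and the lactate carrier Slc16a1. The rises lay in Slc2a3, Hk1, 2 phosphofructokinase genes, the 3 Pfkfb genes that regulate that step, Eno2, Ldhb and Pdk2.

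**Figure D1:**
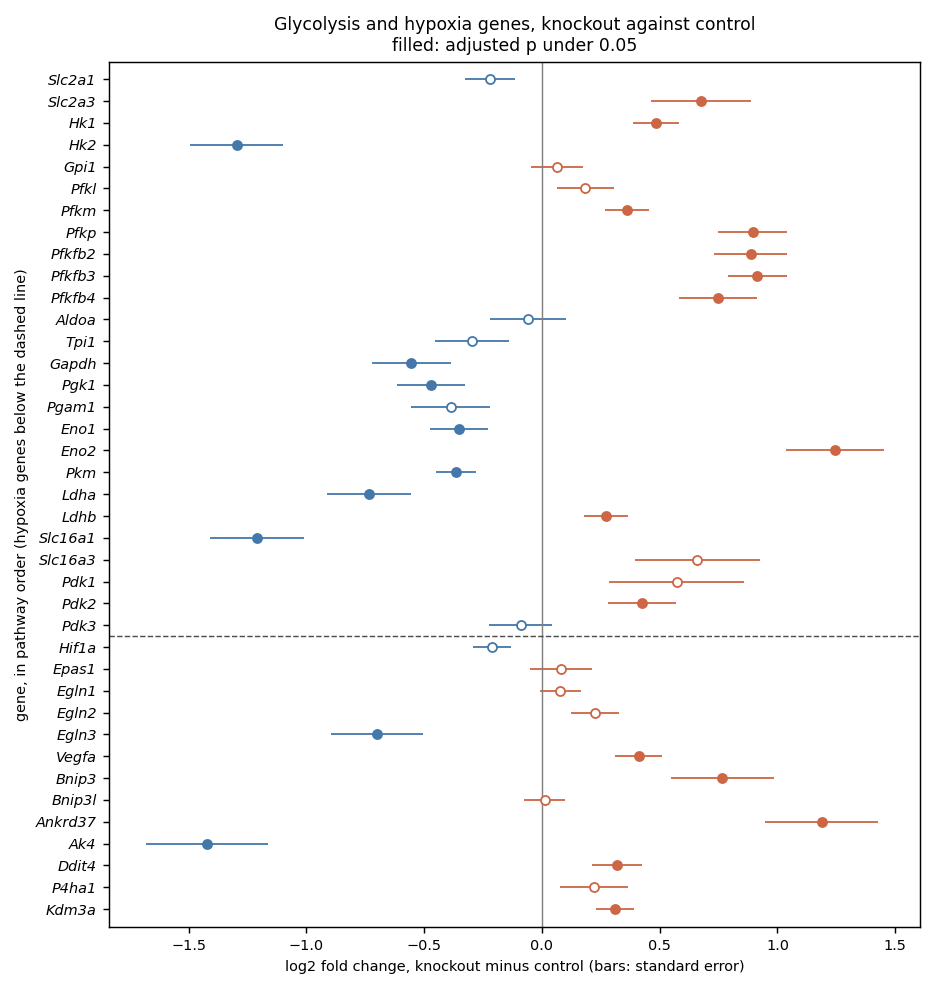
Log2 fold change (knockout minus control, horizontal axis) of the 39 members in pathway order, with standard errors; filled points have an adjusted p under 0.05, orange is above 0 and blue below. Of the 26 glycolysis genes above the dashed line 10 are filled on the right and 7 on the left, with Eno2 at 1.24 and Hk2 at -1.30.

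Glucose enters these cells through facilitative carriers. Slc2a1 (GLUT1), the carrier of the blood-brain barrier and of most dividing cells, was at 680.3 ± 113 (SD, n = 4) in the controls and 579 ± 40.0 (SD, n = 5) in the knockouts, a log2 fold change of -0.22 that did not pass (limma adjusted p = 0.125). Control replicate 4 was the highest library for it, at 842, and knockout replicate 5 the lowest, at 509.8. The neuronal carrier Slc2a3 (GLUT3) held 109, 102, 84.4 and 125 in control replicates 1 to 4 and 171, 123, 116, 217 and 242 in knockout replicates 1 to 5 (log2 fold change 0.67, SE 0.213, limma adjusted p = 0.0266). Knockout replicates 4 and 5 were the highest, and the groups overlapped because control replicate 4 exceeded knockout replicates 2 and 3. Slc2a3 missed the threshold when control replicate 1, 2 or 3 or knockout replicate 1 or 4 was left out (limma adjusted p = 0.0507 to 0.0765). Summed counts of 12 endothelial genes, which mark the vessels where Slc2a1 is abundant, were 1417 to 1846 in control and 1553 to 1928 in knockout, and 1 of the 11 tested, Mfsd2a, fell.

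Hexokinase, which traps glucose as glucose phosphate, gave opposite changes in Hk1 and Hk2. Hk2 (chromosome 6, 82725025 to 82774454, mm10), the isozyme of growing cells, held 199, 185, 212 and 225 normalized counts in control replicates 1 to 4. In knockout replicates 1 to 5 it held 78.1, 109.6, 68.2, 119.6 and 55.4. All 5 knockouts lay below all 4 controls, with knockout replicate 5 the lowest, and the mean was 42.0% of control (log2 fold change -1.30, SE 0.196, limma adjusted p = 0.000366). Hk1 (chromosome 10, 62268855 to 62379908), the hexokinase bound to mitochondria in brain, held 333, 319, 299 and 267 in the controls and 402, 392, 429, 418 and 491 in the knockouts. Here every knockout lay above every control, and knockout replicate 5, lowest for Hk2, was the highest (log2 fold change 0.48, SE 0.0989, limma adjusted p = 0.00201). Summed exon length counts every annotated exon of a gene and can exceed the length of its transcripts. It was 8532 bases for Hk1 and 5969 for Hk2, whose longest coding transcripts held 4229 and 5464 windows of 50 bases. Levels and shares of different genes per kb therefore depend on the length used, here and below. Per kb of summed exon length, Hk1 was at 35.7 ± 3.33 in control and 49.976 ± 4.53 in knockout. Hk2 on that scale was at 34.4 ± 2.91 in control and 14.4 ± 4.59 in knockout. On that scale Hk1 made up 50.9% ± 4.31 (SD, n = 4) of the summed level in the controls and 77.7% ± 6.51 (SD, n = 5) in knockout. The sum of both was 70.1 ± 1.79 and 64.4 ± 3.62 per kb.

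Phosphofructokinase commits sugar to glycolysis and is built from liver (Pfkl), muscle (Pfkm) and platelet (Pfkp) type subunits. Pfkp held 62.7, 69.5, 59.3 and 53.8 normalized counts in control replicates 1 to 4 and 108, 101, 100.3, 123 and 145 in knockout replicates 1 to 5. No library of 1 group reached the range of the other, and Pfkp rose (log2 fold change 0.89, SE 0.148, limma adjusted p = 0.000536). For Pfkm the control libraries held 616, 580.0, 644 and 545 and the knockouts 704, 704, 859.6, 736 and 835. Every knockout exceeded every control by a smaller margin, and Pfkm rose (log2 fold change 0.36, SE 0.093, limma adjusted p = 0.00811); against control replicates 2 and 3 only it missed the threshold (log2 fold change 0.32, limma adjusted p = 0.0594). Pfkl, at 803 ± 137 (SD, n = 4) in the controls and 907 ± 103 (SD, n = 5) in the knockouts, did not pass (adjusted p = 0.248), and its groups overlapped. Pfkl passed as higher against control replicates 2 and 3 only (log2 fold change 0.39, limma adjusted p = 0.0364). Summed exon length was 6675 bases for Pfkl, 3340 for Pfkm and 13401 for Pfkp. Their longest coding transcripts held 3681, 2830 and 4096 windows of 50 bases, so the order of Pfkm and Pfkl depends on the length used. Levels per kb of summed exon length kept the same order in both groups. Pfkm was at 178 ± 12.9 in control and 229.9 ± 22.3 in knockout, Pfkl at 120.2 ± 20.6 in control and 136 ± 15.4 in knockout, and Pfkp at 4.58 ± 0.491 in control and 8.62 ± 1.42 in knockout. Pfkp remained a small part of the summed level, 1.51% ± 0.210 in control and 2.30% ± 0.307 in knockout. Gpi1, the isomerase that precedes this step, was at 764 ± 111 in control and 795 ± 88.1 in knockout (log2 fold change 0.06, adjusted p = 0.686).

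The 3 Pfkfb genes encode bifunctional enzymes that make and remove the sugar bisphosphate activating phosphofructokinase, and all 3 rose. Pfkfb3, the form with the strongest kinase activity and a known HIF target, held 186, 148, 195 and 189 in control replicates 1 to 4 and 268, 325, 378, 399.9 and 332 in knockout replicates 1 to 5 (log2 fold change 0.92, SE 0.127, limma adjusted p = 0.000196). Pfkfb2 held 66.7, 87.4, 105 and 74.7 in the controls and 188, 125.96, 147, 146 and 162 in the knockouts (log2 fold change 0.89, SE 0.154, limma adjusted p = 0.000716). Pfkfb4, also a known HIF target, held 61.7, 86.4, 72.3 and 59.8 in the controls and 139, 88.5, 122, 105 and 137 in the knockouts (log2 fold change 0.75, SE 0.166, limma adjusted p = 0.00343). For none of the 3 did the groups overlap, although Pfkfb4 in knockout replicate 2 lay just above control replicate 2. Pfkfb4 did not pass against control replicates 2 and 3 only (log2 fold change 0.56, limma adjusted p = 0.0645). Their summed level per kb was 49.6 ± 3.81 in control and 90.6 ± 7.10 in knockout, with Pfkfb3 the largest part in both groups.

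From aldolase to pyruvate kinase, where the split sugars are oxidised and the pathway makes its ATP, 4 of the 7 steps had a gene that fell and 1 gene, Eno2, rose. Aldoa, the main aldolase, was at 1129 ± 329.6 in control and 1051 ± 83.9 in knockout and did not pass (log2 fold change -0.06, adjusted p = 0.803). Triose phosphate isomerase, Tpi1, was at 1139.9 ± 327 in control and 903 ± 80.3 in knockout (log2 fold change -0.30, adjusted p = 0.158). Both genes had control replicates 1 and 4 as their highest libraries, at 1333 and 1479 for Aldoa and 1544 and 1263 for Tpi1. Against control replicates 2 and 3 only, the log2 fold change of Aldoa turned to 0.30 (limma adjusted p = 0.0655) and that of Tpi1 to 0.04 (adjusted p = 0.823). Without control replicate 3, Tpi1 passed as lower (limma adjusted p = 0.0377).

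Gapdh, the dehydrogenase often used as a reference gene, fell: it held 78.8, 113, 128 and 85.7 in control replicates 1 to 4 and 70.2, 70.2, 68.2, 77.5 and 53.4 in knockout replicates 1 to 5 (log2 fold change -0.55, SE 0.17, limma adjusted p = 0.0206). The groups did not overlap, but knockout replicate 4 and control replicate 1 were close. Gapdh missed the threshold when control replicate 2 or 3 was left out (limma adjusted p = 0.0578 to 0.0767). Pgk1, the kinase of the first ATP-making step, held 182, 135, 152 and 183 in the controls and 102, 133, 141, 115 and 96.7 in the knockouts (log2 fold change -0.47, SE 0.144, limma adjusted p = 0.0203). Control replicate 2 was inside the knockout range for it. Pgk1 missed the threshold when control replicate 1 or 4 was left out (limma adjusted p = 0.0605 to 0.0717), and against control replicates 2 and 3 only its log2 fold change was -0.30 (adjusted p = 0.254). Pgam1, the mutase, was at 60.6 ± 8.06 in control and 46.2 ± 6.55 in knockout (log2 fold change -0.39, adjusted p = 0.0884) and did not pass. These values are uncertain because near-identical stretches occur in other annotated genes. Of the 50-base windows of the longest coding transcript, 82.5% in Gapdh, 72.2% in Eno1, 68% in Pgk1 and 41.5% in Pgam1 also occur in a transcript of another annotated gene. The share was 34.4% for Pkm, 27% for Ldhb and 16.6% for Ldha, and 0 for Hk1, Hk2, Pfkm, Pfkp and Slc16a1. Reads from shared stretches can be dropped or assigned to a copy, so the low level of Gapdh here, 24.5 per kb in control against 1138 for Pkm, is not a measure of its abundance. The rows of the 218 genes that share windows with Gapdh summed to 1786 normalized counts in control and 1302 in knockout on average.

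Enolase, the penultimate step, changed its isozymes. Eno2 (chromosome 6, 124760053 to 124769673), the neuron-specific enolase, held 64.7, 42.7, 32.2 and 39.9 normalized counts in control replicates 1 to 4. It held 77.2, 96.2, 109, 138 and 109.8 in knockout replicates 1 to 5, all above the controls, of which control replicate 1 was the highest (log2 fold change 1.24, SE 0.206, limma adjusted p = 0.000539). Eno1 (chromosome 4, 150236721 to 150248879), the enolase of most cells, held 826, 526, 583 and 780.2 in the controls and 505, 488, 546, 525 and 546 in the knockouts (log2 fold change -0.35, SE 0.123, limma adjusted p = 0.0373). Control replicates 1 and 4 stood well above the other libraries for Eno1, while control replicates 2 and 3 lay close to the knockouts. Eno1 missed the threshold when control replicate 1 or 4 or knockout replicate 1, 2, 3 or 4 was left out (limma adjusted p = 0.0564 to 0.131), and against control replicates 2 and 3 only the log2 fold change was -0.09 (limma adjusted p = 0.575). Per kb, Eno2 was 7.04% ± 1.53 (SD, n = 4) of the summed level of Eno1 and Eno2 in control. In knockout it was 18.7% ± 2.91 (SD, n = 5), so Eno1 stayed the larger part of that sum. Eno3, which is not a member, was at 24.2 ± 3.49 per kb in control and 27.4 ± 4.26 in knockout and did not pass (limma adjusted p = 0.473). The share of Eno2 is uncertain because of the shared sequence of Eno1 given above. Pkm, the pyruvate kinase gene, had the highest count of all members, 5947, 5192, 5241 and 6378 in the controls and 4365, 4467, 4447, 4278 and 4467 in the knockouts. The knockouts lay within a narrow range below every control (log2 fold change -0.36, SE 0.0838, limma adjusted p = 0.00425). Pkm passed against control replicates 2 and 3 only, with a smaller difference (log2 fold change -0.24, limma adjusted p = 0.0444). Its main splice forms, typical of dividing cells and of neurons, share this row and cannot be told apart.

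**Figure D2:**
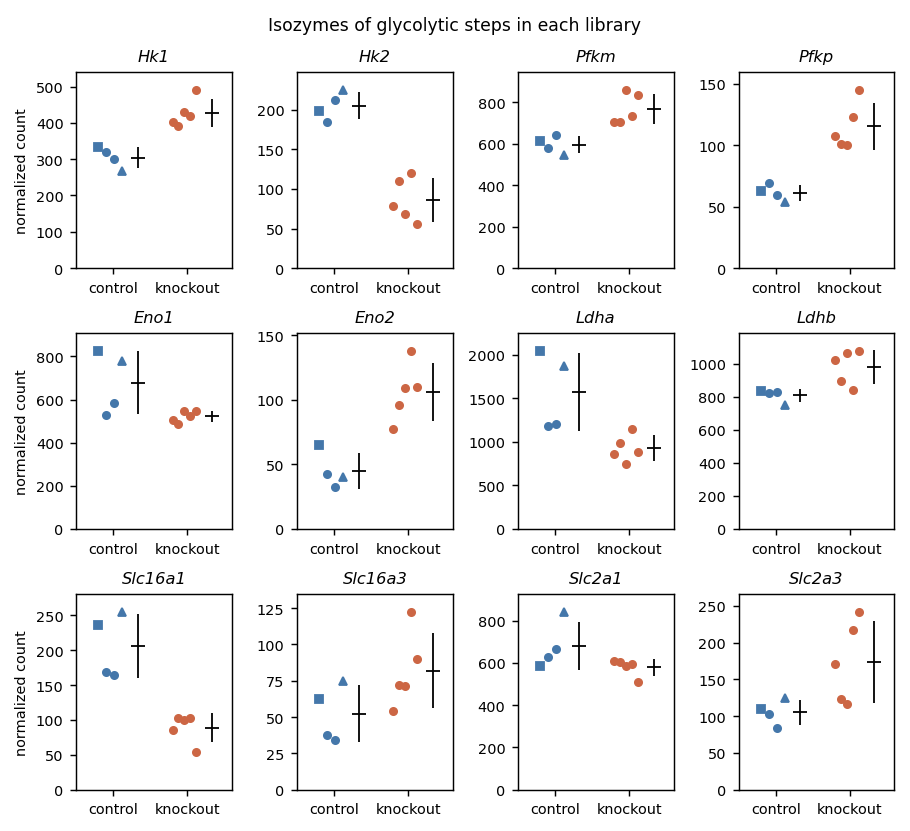
Normalized count (vertical axis, from 0) of 12 genes by library, group means and SDs being drawn beside the points; squares are control replicate 1 and triangles control replicate 4, which carries 1 floxed allele. Hk2 and Slc16a1 are lower in all 5 knockouts, Hk1, Pfkm, Pfkp and Eno2 are higher in all 5, and Eno1 and Ldha show control replicates 1 and 4 above the other libraries.

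Lactate dehydrogenase interconverts pyruvate and lactate; its A subunit is known for making lactate and its B subunit for using it. Ldha (chromosome 7, 46841475 to 46855627), a classic HIF target, held 2042, 1180.0, 1204 and 1866 in control replicates 1 to 4 and 864, 988, 749, 1144 and 887 in knockout replicates 1 to 5. The highest knockout, replicate 4, lay just under the lowest controls, and control replicates 1 and 4 were far above them (log2 fold change -0.73, SE 0.179, limma adjusted p = 0.00848). Ldha did not pass against control replicates 2 and 3 only (log2 fold change -0.38, limma adjusted p = 0.075). Ldhb (chromosome 6, 142490249 to 142507957) held 836, 820.4, 828 and 747 in the controls and 1022, 896, 1063, 842 and 1077 in the knockouts, a small rise with groups that nearly touched (log2 fold change 0.27, SE 0.0937, limma adjusted p = 0.0353). Ldhb missed the threshold when control replicate 2, 3 or 4 or knockout replicate 1, 3 or 5 was left out (limma adjusted p = 0.0546 to 0.109). Per kb, Ldhb was at 515 ± 26.023 in control and 624 ± 66.9 in knockout and Ldha at 475 ± 135 in control and 279.9 ± 44.8 in knockout. The share of Ldhb in the summed level was 52.7% ± 7.66 in control and 68.9% ± 5.65 in knockout. Summed exon length was 3310 bases for Ldha and 1570 for Ldhb, whose longest coding transcripts held 1766 and 1255 windows of 50 bases. Which gene was larger in control therefore depends on the length used.

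Lactate leaves or enters cells through monocarboxylate transporters. Slc16a1 (MCT1, chromosome 3, 104638668 to 104658462) held 236, 169, 164 and 255 in control replicates 1 to 4 and 85.1, 103, 99.3, 103 and 54.4 in knockout replicates 1 to 5. It fell to 43.2% of control with no overlap, and knockout replicate 5 was the lowest (log2 fold change -1.21, SE 0.199, limma adjusted p = 0.000616). Slc16a3 (MCT4), the exporter induced by hypoxia, held 62.7, 37.7, 34.2 and 74.7 in the controls and 54.4, 72.1, 71.2, 122 and 89.7 in the knockouts and did not pass (log2 fold change 0.66, adjusted p = 0.0684). Its groups overlapped through control replicates 1 and 4. Without control replicate 4 or without knockout replicate 1, Slc16a3 passed as higher (limma adjusted p = 0.0292 and 0.035), as it did against control replicates 2 and 3 only (log2 fold change 1.12, adjusted p = 0.014). Slc16a1 is also a carrier of brain endothelium, whose 12 marker genes had the overlapping sums given above.

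The Pdk kinases switch off pyruvate dehydrogenase and so hold pyruvate back from the mitochondrion. Pdk2 held 140.5, 133, 129.6 and 104 in control replicates 1 to 4 and 139, 139, 184, 196 and 199 in knockout replicates 1 to 5 (log2 fold change 0.43, SE 0.145, limma adjusted p = 0.0338). Control replicate 1 lay above knockout replicates 1 and 2, so the groups overlapped. Pdk2 missed the threshold when control replicate 3 or 4 or knockout replicate 3, 4 or 5 was left out (limma adjusted p = 0.0565 to 0.118). Pdk1, the HIF-responsive kinase, held 151, 73.5, 75.4 and 131 in the controls and 92.0, 140.4, 149, 231 and 184 in the knockouts, with wide spread in both groups, and did not pass (log2 fold change 0.57, adjusted p = 0.148). It passed as higher without knockout replicate 1 (limma adjusted p = 0.0386) and against control replicates 2 and 3 only (log2 fold change 1.024, adjusted p = 0.0353). Pdk3, at 193 ± 38.7 in control and 179 ± 15.3 in knockout, had a log2 fold change of -0.09 (adjusted p = 0.635), which turned to 0.15 against control replicates 2 and 3 only.

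Ratios between paired genes were then compared within each library, where the scaling of the library cancels. Of 17 pairs, 7 passed an exact permutation test (two-sided, Benjamini-Hochberg adjusted over the 17 pairs). The log2 ratio of Hk1 to Hk2 was 0.57 ± 0.25 in control and 2.35 ± 0.56 in knockout, a 3.44-fold higher ratio (exact permutation p = 0.00794, the smallest the design allows, adjusted p = 0.027). For Eno2 to Eno1 the log2 ratio was -3.91 ± 0.34 in control and -2.31 ± 0.27 in knockout (3.03-fold). These 2 pairs had the largest rises, with every knockout above every control. Ldhb to Ldha was -0.92 ± 0.45 in control and 0.09 ± 0.38 in knockout (2.01-fold, exact permutation p = 0.0159, adjusted p = 0.0385), and Pfkp to Pfkl was -3.68 ± 0.33 in control and -2.97 ± 0.19 in knockout (exact permutation p = 0.00794). Slc16a1 to Slc16a3 went the other way, 2.003 ± 0.22 in control and 0.13 ± 0.58 in knockout, and in knockout replicates 4 and 5 its log2 ratio was below 0, at -0.24 and -0.71. The hypoxia pairs Egln3 to Egln1 and Bnip3l to Bnip3 also passed, with log2 differences of -0.78 and -0.75. The groups of libraries did not overlap for any of the 7. Slc2a1 to Slc2a3 also did not overlap, with an adjusted exact permutation p of 0.06 that missed the threshold. The other 9 pairs overlapped, among them Pfkfb2 to Pfkfb3, with a log2 difference of -0.03. Groups that do not overlap stay apart when libraries are left out. The kept direction and lack of overlap of these 7 pairs in such settings was therefore fixed in advance and adds no support. With fewer libraries the smallest exact permutation p is 0.0143 to 0.0476, and after adjustment 0 pairs passed, except 8 when control replicate 2 was left out. Those 8 included Pfkp to Pfkm and Pdk3 to Pdk2, which had not passed with all libraries (adjusted exact permutation p = 0.0379 for each). Bnip3l to Bnip3 then missed the threshold (adjusted exact permutation p = 0.0607).

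**Figure D3:**
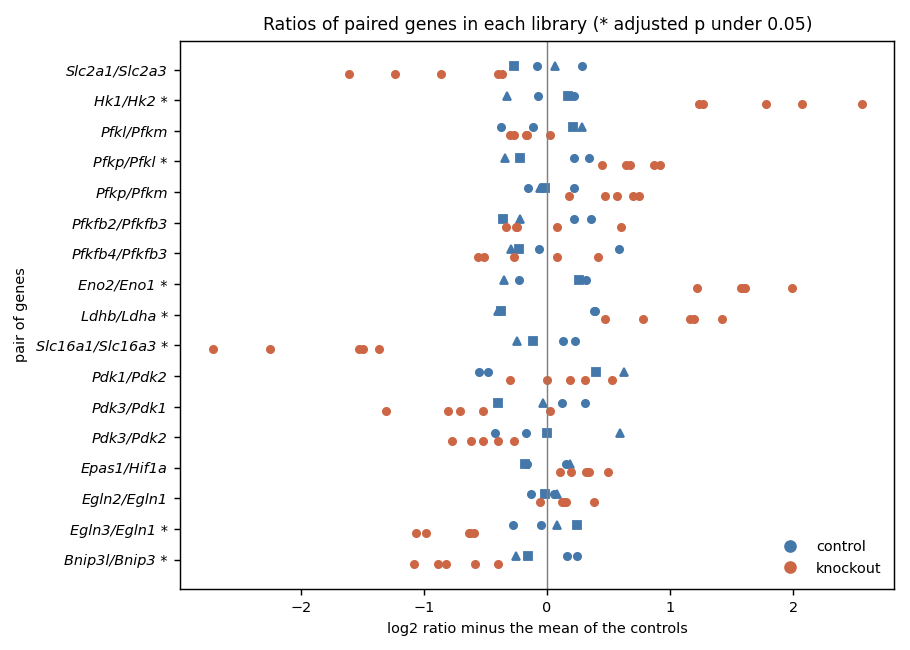
Log2 ratio of each of 17 gene pairs in each library, minus the mean of the controls (horizontal axis); blue is control, orange knockout, squares are control replicate 1 and triangles control replicate 4. The 7 pairs with a star have an adjusted p under 0.05 by exact permutation, and in each of them the orange and blue points are separate.

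Neither HIF alpha subunit passed the test. Hif1a, the alpha subunit that responds in most cells, was at 1050.2 ± 54.6 (SD, n = 4) in the controls and 907 ± 52.6 (SD, n = 5) in the knockouts. Each knockout was below each control, yet the change did not pass (log2 fold change -0.21, SE 0.0813, limma adjusted p = 0.0565); Hif1a passed under TMM scaling and with a minimum mean of 50. Epas1, the related HIF alpha subunit best known in endothelium, was at 147 ± 19.9 in control and 155 ± 20.1 in knockout (log2 fold change 0.08, adjusted p = 0.665). Per kb, Hif1a was at 178 ± 9.26 in control and 154 ± 8.92 in knockout and Epas1 at 26.3 ± 3.56 in control and 27.8 ± 3.60 in knockout, so Hif1a was the larger in both groups. Of the prolyl hydroxylases that mark HIF for destruction, Egln1 was at 674 ± 16.3 in control and 713 ± 63.9 in knockout and Egln2 at 585 ± 40.0 in control and 688 ± 90.6 in knockout; neither passed (adjusted p = 0.504 and 0.102). Egln3, the hydroxylase that is itself a HIF target, held 56.6, 38.7, 44.2 and 47.8 in control replicates 1 to 4 and 29.7, 23.1, 36.1, 29.7 and 24.2 in knockout replicates 1 to 5. It was lower in every knockout and lowest in knockout replicate 2 (log2 fold change -0.70, SE 0.197, limma adjusted p = 0.0131). Against control replicates 2 and 3 only Egln3 did not pass (log2 fold change -0.54, limma adjusted p = 0.152).

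Besides Egln3, which fell, 8 HIF targets outside glycolysis were among the members: 5 rose, 1 fell and 2 did not pass. Of all genes tested 17.2% passed as higher and 17.3% as lower. The 8 were picked by name, and a longer list of hypoxia genes is given below. Ankrd37 (chromosome 8, 45996902 to 46005707), an ankyrin repeat gene strongly induced by HIF, held 14.2, 11.9, 12.1 and 16.9 in control replicates 1 to 4 and 24.7, 36.5, 37.1, 24.9 and 42.3 in knockout replicates 1 to 5 (log2 fold change 1.19, SE 0.24, limma adjusted p = 0.00187). Bnip3 (chromosome 7, 138890836 to 138909519), a mitochondrial receptor for mitophagy, held 23.2, 16.9, 15.1 and 19.9 in the controls and 28.7, 31.7, 37.1, 39.2 and 26.2 in the knockouts (log2 fold change 0.77, SE 0.218, limma adjusted p = 0.014). Both are low in count and did not overlap between the groups; 21.9% of the windows of Bnip3 are shared with other genes. Its relative Bnip3l (NIX), which clears mitochondria from red cell precursors, was at 620.0 ± 56.7 in control and 623 ± 29.5 in knockout (log2 fold change 0.01, adjusted p = 0.931).

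Vegfa (chromosome 17, 46016993 to 46032369), the vessel growth factor, held 316, 347, 409 and 351 in control replicates 1 to 4 and 411, 467, 502, 506 and 476 in knockout replicates 1 to 5 (log2 fold change 0.41, SE 0.0988, limma adjusted p = 0.00553). Knockout replicate 1 lay just above control replicate 3, so the groups were adjacent without overlap; against control replicates 2 and 3 only the log2 fold change was 0.32 (limma adjusted p = 0.0679). The histone demethylase gene Kdm3a held 847, 971, 994 and 991 in the controls and 1156, 1145, 1243, 1186 and 1162 in the knockouts, higher in every knockout (log2 fold change 0.31, SE 0.0809, limma adjusted p = 0.00856). Ddit4, an inhibitor of mTOR signalling, held 394, 395, 436 and 328 in the controls and 483, 508, 561, 454 and 418 in the knockouts, with overlap (log2 fold change 0.32, SE 0.108, limma adjusted p = 0.0327). Ddit4 missed the threshold when control replicate 4 or knockout replicate 1, 2 or 3 was left out (limma adjusted p = 0.0577 to 0.121). P4ha1, a collagen hydroxylase subunit, was at 197 ± 31.2 in control and 231 ± 44.6 in knockout and did not pass (adjusted p = 0.25).

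Ak4 (chromosome 4, 101419277 to 101466995), a mitochondrial adenylate kinase and HIF target, was the member with the largest fall. It held 120.3, 70.5, 67.3 and 74.7 in control replicates 1 to 4 and 34.6, 33.7, 18.1, 45.9 and 23.2 in knockout replicates 1 to 5 (log2 fold change -1.42, SE 0.259, limma adjusted p = 0.00102). Control replicate 1 stood above the other controls, and knockout replicate 4 was the highest knockout, still under all controls. Ak4 passed under each of the 18 alternatives run, as did Hk1, Hk2, Pfkp, Pfkfb2, Pfkfb3, Eno2, Pkm, Slc16a1 and Kdm3a. Bnip3 and Ankrd37 passed under each alternative in which they were tested, since a minimum mean of 50 leaves them out.

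**Figure D4:**
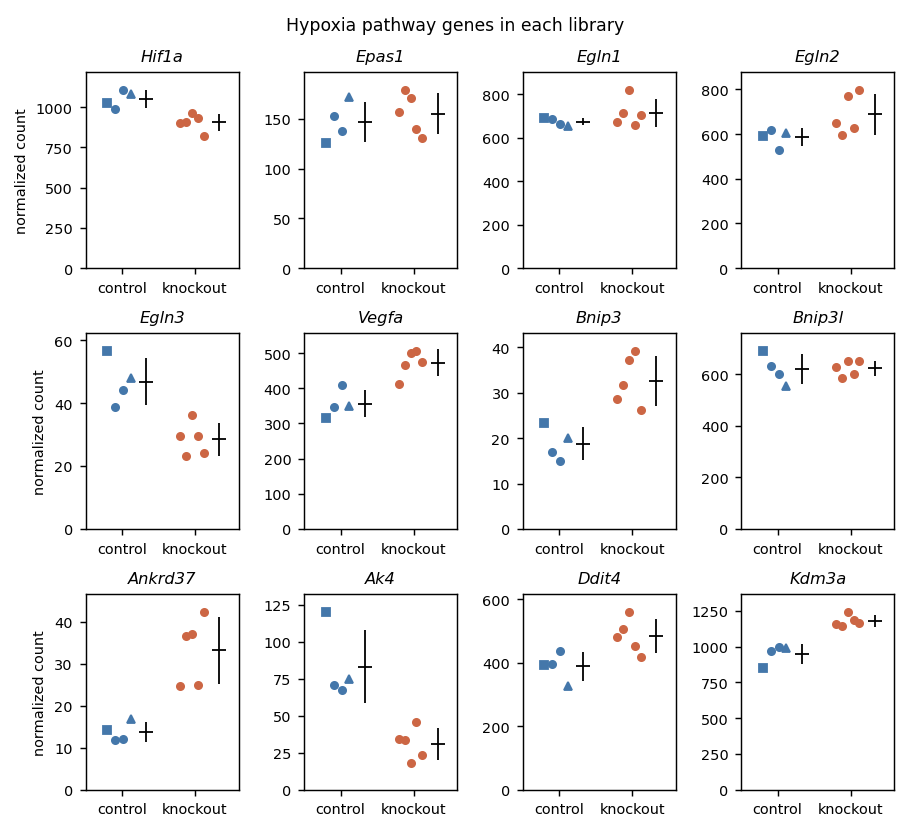
Normalized count (vertical axis, from 0) of 12 hypoxia pathway genes by library, with group mean and SD beside the points; squares are control replicate 1 and triangles control replicate 4. Ankrd37, Bnip3, Vegfa and Kdm3a are higher and Ak4 and Egln3 lower in all 5 knockouts, while Bnip3l, Epas1 and Egln1 overlap.

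The HIF core was found in promoters of members that fell and of members that rose. The 200 bases before the RefSeq start (GRCm38.p6) are shown for 5 members, 3 that fell and 2 that rose, chosen after their values were seen. Capitals mark the letters ACGTG or GCGTG on either strand (CACGT or CACGC where the reverse strand carries them); the overlapping matches of CACGTG count separately. The stretches are Hk2 at chr6:82774455-82774654 (- strand, 1 core), Slc16a1 at chr3:104638464-104638663 (+ strand, 4 cores) and Ldha at chr7:46845604-46845803 (+ strand, 5 cores) among those that fell, the last before the upstream of its 2 RefSeq starts. Those that rose are Ankrd37 at chr8:45999851-46000050 (- strand, 3 cores) and Bnip3 at chr7:138909507-138909706 (- strand, 5 cores).
Hk2: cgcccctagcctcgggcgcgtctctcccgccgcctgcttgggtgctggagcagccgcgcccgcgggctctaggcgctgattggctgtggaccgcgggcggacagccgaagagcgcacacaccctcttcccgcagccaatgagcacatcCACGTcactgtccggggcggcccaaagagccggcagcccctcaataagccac
Slc16a1: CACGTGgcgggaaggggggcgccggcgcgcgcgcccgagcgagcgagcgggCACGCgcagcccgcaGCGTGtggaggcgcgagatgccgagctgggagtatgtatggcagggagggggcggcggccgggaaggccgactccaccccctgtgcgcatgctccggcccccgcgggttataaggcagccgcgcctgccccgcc
Ldha: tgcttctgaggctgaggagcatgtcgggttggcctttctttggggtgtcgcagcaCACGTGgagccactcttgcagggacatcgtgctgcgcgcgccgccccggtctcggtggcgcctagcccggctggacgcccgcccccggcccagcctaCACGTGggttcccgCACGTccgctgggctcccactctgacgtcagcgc
Ankrd37: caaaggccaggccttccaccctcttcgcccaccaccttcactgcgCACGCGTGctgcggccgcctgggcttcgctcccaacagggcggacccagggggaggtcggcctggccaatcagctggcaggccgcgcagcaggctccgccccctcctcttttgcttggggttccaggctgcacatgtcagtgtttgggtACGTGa
Bnip3: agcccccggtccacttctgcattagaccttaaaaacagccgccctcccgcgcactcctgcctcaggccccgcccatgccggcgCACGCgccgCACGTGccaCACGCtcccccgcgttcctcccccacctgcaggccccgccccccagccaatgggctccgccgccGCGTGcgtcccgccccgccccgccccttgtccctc
RefSeq windows of 300 bases, from 250 before to 50 after a start, were found for 36 of the 39 members. The core was present in 46 of their 58 windows (79.3%), against 43.8% of all 32851 windows and 62.5% of the 12639 windows matched to genes tested. It was in 15 of 16 windows of members that fell and 18 of 25 of members that rose. The single windows of Eno2, Gpi1 and Tpi1 held none. Windows of 1 gene can overlap, the base composition of the sets was not matched, and a match describes letters only.

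Of 51 further glycolysis and pyruvate genes, 35 were tested: 2 rose, 5 fell and 28 did not pass (20% passed, beside 34.5% of all genes; median log2 fold change -0.03). Pdp1, the phosphatase that reactivates pyruvate dehydrogenase against the Pdk kinases, was higher at 356 ± 45.2 normalized counts in knockout against 226 ± 24.5 in control (log2 fold change 0.65, limma adjusted p = 0.000911). Pdha1, the catalytic subunit of that dehydrogenase, fell from 526 ± 69.9 to 402 ± 38.0 (log2 fold change -0.38). The carrier Slc2a4 (GLUT4) fell from 172 ± 25.982 to 114 ± 19.5, and the intracellular carrier Slc2a8 rose from 53.5 ± 12.7 to 89.2 ± 21.2. The number that rose was 4 without control replicate 1 or without knockout replicate 4, and the number that fell was 3 when control replicate 1, 3 or 4 or knockout replicate 3 was left out, and also against control replicates 2 and 3 only.

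Of 49 further hypoxia genes in the table, 44 were tested, and 10 rose, 5 fell and 29 did not pass (34.1% passed, near the 34.5% of all genes; median log2 fold change 0.15). Cited2, which competes with HIF for its coactivator, rose from 726 ± 151 to 1286 ± 164 (log2 fold change 0.84, limma adjusted p = 0.000356). Mxi1, a Myc antagonist, rose from 662 ± 86.4 to 944 ± 107, and the histone demethylase gene Kdm4b from 707 ± 127 to 1074 ± 175. The transferrin receptor gene Tfrc, which takes up iron, fell from 790.0 ± 89.0 to 555 ± 83.7. Without control replicate 4 the counts were 6 higher and 2 lower, and against control replicates 2 and 3 only 3 and 1. Over all 13780 genes tested the numbers also fell, from 2369 higher and 2380 lower to 1847 and 1682, and to 1370 and 1108.

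The controls were not uniform for glycolysis genes. Control replicates 1 and 4 both lay above control replicates 2 and 3 for 14 of the 26 glycolysis genes, beside 24.9% of all genes tested, and below them for 3, beside 26.2%. The 14 were Slc2a3, Gpi1, Pfkl, Aldoa, Tpi1, Pgk1, Pgam1, Eno1, Pkm, Ldha, Slc16a1, Slc16a3, Pdk1 and Pdk3. Among the 13 hypoxia genes Egln3, Bnip3, Ankrd37 and Ak4 had the same order. Control replicate 4 has 1 floxed Ctnnb1 allele, while control replicate 1 has 0, as have control replicates 2 and 3; the part of genotype was not tested. Several other measures also separated these pairs of controls. Sums of the 9 MGE interneuron genes were 3451 and 4572 in control replicates 1 and 4 against 7743 and 6444 in 2 and 3. Neuron sums were likewise lower in 1 and 4, at 14744 and 15112 against 18215 and 17710.1. Radial glia sums were higher in 1 and 4, at 23124 and 26833 against 21478 and 22447. For these 3 lists control replicates 2 and 3 were nearer to the knockouts than control replicates 1 and 4 were. Proliferation sums did not separate the pairs, at 26973 and 29538 in 1 and 4 against 26728 and 27099 in 2 and 3. Mitochondrial transcripts took 1.99% and 1.88% of the counts of control replicates 1 and 4, 1.39% and 1.37% in 2 and 3, and 1.39% to 1.53% in the knockouts. Summed counts of 9 red cell genes were 9586 and 12784 in control replicates 1 and 4, 2837 and 5793 in 2 and 3, and 3355 to 7958 in the knockouts. Dorsal telencephalon genes, 9 in number, set only control replicate 1 apart, with a sum of 2891; control replicates 2, 3 and 4 held 207, 282 and 131, and the knockouts 283 to 751. Sums of 7 choroid plexus genes likewise ran from 166 to 367 in control replicates 2 to 4, 3029 in control replicate 1 and 168 to 737 in the knockouts. The part of these measures in the glycolysis values was not tested. The labels give no batch or date, so no comparison within batches could be made.

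**Figure D5:**
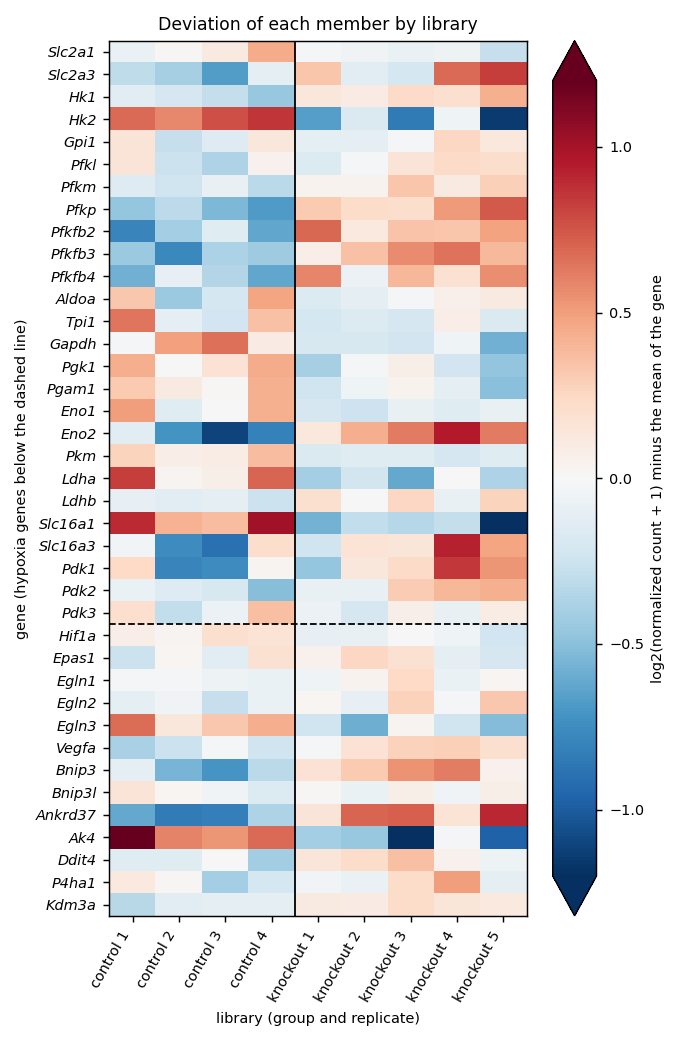
Log2(normalized count + 1) of each member (rows) in each library (columns), minus the mean of that gene over the 9 libraries; red is above and blue below that mean. Control replicates 1 and 4 are both redder than control replicates 2 and 3 for 14 of the 26 glycolysis genes, and Hk2, Slc16a1 and Ak4 change colour between control and knockout.

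Among the knockouts, the members did not follow 1 order. Knockout replicate 5, with the lowest proliferation sum (10006) and the highest neuron sum (35376), was the lowest knockout for the glycolysis genes Slc2a1, Hk2, Gapdh, Pgk1, Pgam1 and Slc16a1 and the highest for Slc2a3, Hk1, Pfkp, Aldoa, Eno1, Pkm, Ldhb, Pdk2 and Pdk3. Knockout replicate 2 had the highest proliferation sum (20246), and its Hk2 count of 109.6 was second to that of knockout replicate 4, 119.6. Knockout replicate 4 was the highest knockout for Hk2, Gpi1, Pfkl, Pfkfb3, Tpi1, Gapdh, Eno2, Ldha, Slc16a1, Slc16a3 and Pdk1. Sums of the 11 radial glia genes were 21478 to 26833 in control and 12828 to 16508 in knockout, and those of the 9 MGE interneuron genes 3451 to 7743 and 11268 to 15447. Sums of 6 pericyte genes (757 to 1073 and 926 to 1179), 7 microglia genes (266 to 409 and 175 to 347) and 6 meningeal genes (336 to 1335 and 375 to 2291) overlapped. The part of the shift between progenitor and neuron genes in the values of the members was not tested.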

How the data were processed

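The deposited unit is a signal, called normalized count here: in each library all values above 0 lie within 0.01 of a whole multiple of 1 step, as counts scaled by a size factor do. Per the submitters' processing notes the authors used mm10, HTSeq 0.9.1, TopHat2 2.1.1, DESeq2 and R 3.4.0; which did what, the annotation and the strandedness of counting: not given in the sources used here. Genes overlapping on opposite strands may share reads. No count model was fitted. All 9 columns matched a library by title. Symbols matched 48058 of 48526 identifiers; 17677 were at 0 in every library. Positions and exon lengths are from GENCODE M21 (same build), promoters from RefSeq.

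The main test was limma 3.58.1 (trend and robust, statmod 1.5.0, R 4.3.3), two-sided, for genes whose mean reached 10. The labels set control replicate 4 apart from the other controls by genotype, but do not show that libraries of the same genotype come from separate embryos. The p-values therefore measure only the spread between these libraries, and the spread within a genotype may be technical. The precision of a low gene is limited by its reads. Ratios were tested by exact permutation in Python 3.11.15. Alternatives were a pseudocount of 0.5 or 8, a minimum mean of 50 or none, TMM scaling (computed from the published formula) and upper-quartile scaling, limma without trend and robust, the replicate number as a block, each library left out, and control replicates 2 and 3 only. Procedures were tested on simulated data. The members and lists were chosen with earlier results of these data known. Values in every library are given for members past the threshold and their isozymes, means or ranges for the rest. From each list of other pathway genes the 4 past the threshold with the smallest p are given, and Eno3 beside its isozymes.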

Additional observations from a re-analysis of the deposited data

Results flagged for a closer look

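In 4 instances a library stood apart from the rest of its group by Dixon's criterion at the 95% level, out of 114 groups of values examined; chance flags about 1 in 20. Control replicate 1 held 120.3 normalized counts of Ak4, where the remaining controls held 67.3 to 74.7, and 847 of Kdm3a, where they held 971 to 994. Knockout replicate 5 held 509.8 of Slc2a1, below a range of 584 to 607 in the remaining knockouts. Knockout replicate 4 held 1045 of Tpi1, above a range of 852 to 882. Without control replicate 1, Ak4 and Kdm3a still passed.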

How the results depend on the processing

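Of the 24 members that passed, 12 passed under each of the 18 alternatives in which they were tested, and no member that passed changed direction. Against control replicates 2 and 3 only, 8 glycolysis genes rose and 4 fell, 3 hypoxia genes rose and 1 fell, 3 other glycolysis genes fell, 3 other hypoxia genes rose and 1 fell, and 0 ratios passed; fewer samples were then in the fit. A minimum mean of 50 left 3 hypoxia genes that rose, since Bnip3 and Ankrd37 were then not tested; TMM scaling gave 3 that fell, Hif1a included. Leaving out 1 library gave 7 to 10 glycolysis genes higher and 5 to 7 lower, 4 to 5 hypoxia genes higher and 2 lower, 2 to 4 other glycolysis genes higher and 3 to 5 lower, 6 to 10 other hypoxia genes higher and 2 to 6 lower, and 0 to 8 ratios past the threshold, where fewer splits raise the smallest exact p to 0.0143 or 0.0179. Limma without trend and robust gave 7 glycolysis genes higher and 6 lower. Over all 13780 genes tested, 2369 rose and 2380 fell in the main fit, beside 1370 and 1108 against control replicates 2 and 3 only. Leaving out 1 library gave 1847 to 2379 higher and 1682 to 2416 lower over all genes. Without trend and robust the numbers over all genes were 2182 and 2108.

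Values that changed sign belonged to members and ratios that had not passed, and the cause was not tested. Against control replicates 2 and 3 only, the log2 fold change was 0.30 for Aldoa, 0.0399 for Tpi1 and 0.15 for Pdk3, and the log2 ratio difference 0.0703 for Pfkl/Pfkm. Leaving out 1 library gave -0.0159 to 0.13 for Gpi1, -0.22 to 0.086 for Aldoa, -0.21 to 0.0151 for Pdk3 and -0.0403 to 0.0644 for Bnip3l, and for ratios -0.19 to 0.0898 for Pfkfb2/Pfkfb3, -0.32 to 0.0249 for Pfkfb4/Pfkfb3 and -0.0372 to 0.36 for Pdk1/Pdk2. Bnip3l was at -0.000625 under TMM scaling.

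The replicate numbers did not pair the libraries: the correlation of deviations from the group means was -0.12, -0.09, 0.14 and -0.04 for numbers 1 to 4, and not every library correlated best with its own number. With the replicate block, 8 glycolysis genes rose and 5 fell, 5 hypoxia genes rose and 2 fell, 3 other glycolysis genes fell, and Bnip3l was at -0.00508; over all genes 1829 rose and 1681 fell. Low counts limit Ankrd37, Bnip3 and Egln3 most, and shared sequence limits Gapdh, Eno1, Pgk1 and Pgam1 most. Shares not given above were smaller, among them 25.1% of windows for Pfkfb2, 23.4% for Bnip3l and 19.3% for Gpi1. For Aldoa, Ak4 and Tpi1 the shares were 13.5%, 11.3% and 7.51%.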
